A study of Rattus norvegicus with 16 samples.

Results

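The line by training interaction asks whether the soleus of rats bred for high running capacity answers endurance training differently from the soleus of rats bred for low capacity. For each probe set it is the training response of the high line (mean of trained minus mean of sedentary rats) minus the training response of the low line, in log2 units, so a positive value means that trained rats stood higher relative to sedentary rats in the high line than in the low line. It uses all 16 of the 16 arrays of the study and 31042 of 31099 probe sets, the other 57 being array controls. HCR (high capacity runner) and LCR (low capacity runner) are lines derived from N: NIH stock by mating, in each generation, the best or the worst treadmill runners tested at 11 weeks of age. All rats were females of generation 16 and about 7 months old, with 4 trained and 4 sedentary rats in each line. Trained rats ran uphill intervals at 85 to 90% of maximal oxygen uptake, each lasting 8 minutes, for 1.5 hours on 5 days per week over 8 weeks, and muscle was taken 48 hours after the last session. Sedentary rats were of the same age and were handled alike apart from training and oxygen uptake tests, so the groups differ in line and in that whole programme. Each array held RNA from 20 mg of one soleus of one rat, and each group had n = 4 such rats, while line is represented by 1 selected population in each direction.

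The soleus is a postural muscle made mostly of slow oxidative fibres, whose contractile proteins include the slow myosin heavy chain Myh7 and the slow troponins. Endurance training is known to raise mitochondrial and capillary content in such muscle and to remodel its connective tissue, and selection for running capacity is known to change the same traits. An interaction separates a response that depends on the line from a line difference present in all rats and from a response shared by both lines. Because whole muscle was used, fewer cells of a type and less RNA per cell cannot be told apart.

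The slow fibre markers that define soleus were high on 15 arrays and lower on 1. Myh7, on its brightest probe set, read between 14.27 and 14.52 on 15 arrays and 12.05 on HCR trained 3, where the mean of 15 slow fibre genes lay 2.39 below its average over arrays and that of 17 fast fibre genes 2.11 above. The array HCR sedentary 2 stood apart in another way, with 42 matrix genes 1.60 and 29 macrophage and leukocyte genes 1.19 above their averages and 29 genes of fatty acid use 0.95 below. A control index of transcript coverage, the 3' minus the middle probe set for beta-actin, itself followed the interaction. In HCR it averaged 1.18 ± 0.54 in sedentary and 1.90 ± 0.35 in trained rats, and in LCR 1.65 ± 0.32 in sedentary and 1.27 ± 0.14 in trained rats (SD, n = 4), an interaction of 1.10 (two-sided exact permutation of training labels within lines, p = 0.00327, adjusted p = 0.0098 over 3 indices). The same exact permutation test gave 0.36 (p = 0.146) for the GAPDH index and 0.53 (p = 0.0731) for the averaged spike-in controls, over 4900 assignments whose smallest possible p is 0.000408. The null of these permutation tests is no training response in either line, which is not the same as equal responses in the lines. List medians below are therefore given also with the beta-actin index added to the model and, for several lists, without the arrays that stand apart. Since that index differs by group in the same pattern, the covariate also takes up part of any interaction that moves with it.

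Over all probe sets, 0 of 31042 passed an adjusted p of 0.05 for the interaction (limma, Benjamini-Hochberg), a share of 0%, and the smallest adjusted p was 0.0801. At an unadjusted p below 0.05 there were 5673 probe sets (18.3%), 3346 positive (10.8%) and 2327 negative (7.5%), where uniform p-values would give about 1552. The 2 directions differed in size: positive interactions at that p had a median of 0.41 and 98 of 3346 reached 2-fold, while negative ones had a median of -0.64 and 622 of 2327 reached 2-fold. In 92.0% of the positive and 96.6% of the negative ones the lines responded with opposite signs, against 58.2% of all probe sets. Median centring of the arrays changed the split to 4665 positive and 1836 negative, with the median interaction over genes going from 0.06 to 0.10.

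No gene is therefore called for the interaction, and the genes of smallest p are described here by their values. Among 11057 genes with 1 symbol and adequate signal, the 12 of smallest p in each direction had adjusted p from 0.0801 to 0.0983, with positive interactions from 0.44 to 1.28 and negative ones from -1.87 to -0.58. All 24 had responses of opposite sign in the lines, and in 16 of them the trained and sedentary rats did not overlap in either line. These features follow in part from the ranking and are a description. The same genes kept their sign in 24 of 24 cases when the beta-actin index was added to the model. Values were between 0.466 and 1.12 times those without it, at an unadjusted p below 0.05 in each case. None passed in that fit, where each had an adjusted p of 0.999 (limma). Because the genes were chosen for small p on these same arrays, their kept signs add no independent evidence.

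The positive genes are given first. C20h22orf15, the gene of smallest p, read 6.09, 6.05, 6.07 and 6.04 in HCR sedentary rats, 6.40, 6.35, 6.35 and 6.35 in HCR trained rats, 6.46, 6.28, 6.38 and 6.23 in LCR sedentary rats, and 6.07, 6.07, 6.004 and 6.13 in LCR trained rats. All 4 HCR trained rats lay above all HCR sedentary rats, all 4 LCR trained rats lay below all LCR sedentary rats, and neither pair of lines overlapped. Its interaction was 0.57 (SE 0.08, adjusted p = 0.0801), a ratio of responses of 1.49. Ring1, an E3 ligase of Polycomb repressive complex 1, read 6.92, 6.80, 6.76 and 6.99 in HCR sedentary rats, 7.21, 7.19, 7.08 and 7.37 in HCR trained rats, 7.15, 7.15, 7.09 and 6.98 in LCR sedentary rats, and 6.85, 6.82, 6.87 and 6.81 in LCR trained rats. Its training groups were separate within both lines, in opposite directions, with an interaction of 0.60 (SE 0.10, adjusted p = 0.0801). Asxl1, a chromatin protein that works with a histone H2A deubiquitinase, had an interaction of 0.69, although 2 of its 3 other probe sets had the opposite sign. Cnot1, the scaffold of the CCR4-NOT deadenylase, had an interaction of 0.44 with very narrow groups, 0.28 in HCR and -0.16 in LCR. Aff1, a scaffold of the super elongation complex, had 0.69. Usf2, an E-box transcription factor, had 0.64 on 1 dim probe set, whereas its 2 brighter probe sets gave -0.42 and -0.03. 

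The other positive genes include a kinase and scaffold and trafficking proteins. Tnk2, a non-receptor tyrosine kinase, read 7.97, 7.57, 8.11 and 8.11 in HCR sedentary rats, 8.34, 8.64, 8.80 and 8.57 in HCR trained rats, 8.29, 8.37, 8.33 and 8.42 in LCR sedentary rats, and 8.14, 7.79, 8.20 and 7.89 in LCR trained rats. Sedentary LCR rats were above sedentary HCR rats and trained HCR rats above trained LCR rats, in both cases without overlap, and the interaction was 0.995 (SE 0.18, adjusted p = 0.0851). Dlg1, a membrane scaffold with PDZ domains, read 7.75, 7.88, 7.92 and 8.08 in HCR sedentary rats, 8.40, 8.71, 9.25 and 8.36 in HCR trained rats, 8.53, 8.68, 8.24 and 8.28 in LCR sedentary rats, and 8.03, 7.66, 8.07 and 7.93 in LCR trained rats. Its interaction, 1.28 (SE 0.24, adjusted p = 0.0966), was the largest of the 12, and its other probe set had the opposite sign. Nmnat1, which makes NAD in the nucleus, had an interaction of 0.85, from 0.55 in HCR and -0.30 in LCR. Trappc10, a subunit of the TRAPPII trafficking complex, had 0.54, Erc1, a scaffold for vesicle docking, 0.53, and Adck5 0.72.

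The 12 negative genes reached larger values. Pmp22, a membrane protein best known from myelin and also made by fibroblasts, read 8.27, 8.78, 8.67 and 8.33 in HCR sedentary rats, 7.87, 7.70, 8.01 and 7.70 in HCR trained rats, 8.00, 7.80, 8.33 and 8.45 in LCR sedentary rats, and 8.95, 8.80, 8.55 and 8.56 in LCR trained rats. Trained rats were below sedentary rats in HCR and above them in LCR without overlap. The interaction was -1.26 (SE 0.22, adjusted p = 0.0801), with a 95% interval from -1.72 to -0.80. A brighter probe set of Pmp22 gave only -0.22 (limma, adjusted p = 0.65). Rnd3, an atypical small GTPase that opposes actomyosin contraction, read 6.46, 5.93, 6.10 and 5.88 in HCR sedentary rats, 5.64, 5.50, 5.31 and 5.58 in HCR trained rats, 5.80, 5.81, 5.64 and 5.77 in LCR sedentary rats, and 6.83, 6.32, 6.17 and 6.18 in LCR trained rats. The training groups were separate within both lines and the lines were separate in both training states, the interaction was -1.20 (SE 0.21, adjusted p = 0.0801), and its 2 other probe sets gave -1.72 and -0.76. Fgl2, a fibrinogen-like protein of immune and endothelial cells, read 5.56, 6.16, 5.69 and 4.96 in HCR sedentary rats, 5.11, 4.46, 5.16 and 4.55 in HCR trained rats, 4.82, 4.75, 5.32 and 5.50 in LCR sedentary rats, and 6.17, 6.72, 6.02 and 5.88 in LCR trained rats. Within lines, only the LCR groups were separate, and the interaction was -1.87 (SE 0.37, adjusted p = 0.0966). This probe set was dim, with a mean over arrays of 5.43. Of its group means, only that of LCR trained rats reached the level taken as adequate signal. The 3 other probe sets of Fgl2, from -2.42 to -0.48, had the same sign. The value of -0.48 came from the brightest, with a mean over arrays of 8.00 (limma, unadjusted p = 0.0855).

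Igf1 encodes insulin-like growth factor 1, a growth signal made within muscle as well as by liver. On its brightest probe set it read 9.41, 9.69, 8.87 and 9.09 in HCR sedentary rats, 8.90, 7.79, 8.28 and 8.48 in HCR trained rats, 8.68, 8.90, 8.92 and 8.68 in LCR sedentary rats, and 9.38, 9.46, 9.06 and 9.12 in LCR trained rats. HCR trained rats were lower than LCR trained rats without overlap, and the interaction was -1.36 (SE 0.29, adjusted p = 0.0983), from -0.90 in HCR and 0.46 in LCR. The 2 other probe sets gave -1.12 and -1.10, so all 3 pointed the same way. Smad7, the inhibitory Smad of TGF-beta signalling, had -0.68, Dact1, a regulator of Wnt signalling, -0.95, and Rgs4, which shortens G protein signals, -1.38. Jam2, a junctional adhesion molecule of endothelium, had -0.70 on a dim probe set and 0.00 on its brightest. Khdrbs1, an RNA-binding splicing regulator, had -0.87, Nherf2, a PDZ scaffold, -1.22, Faf2, which acts in endoplasmic reticulum protein degradation, -0.58, and C11h21orf91 -1.84.

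**Figure D1:**
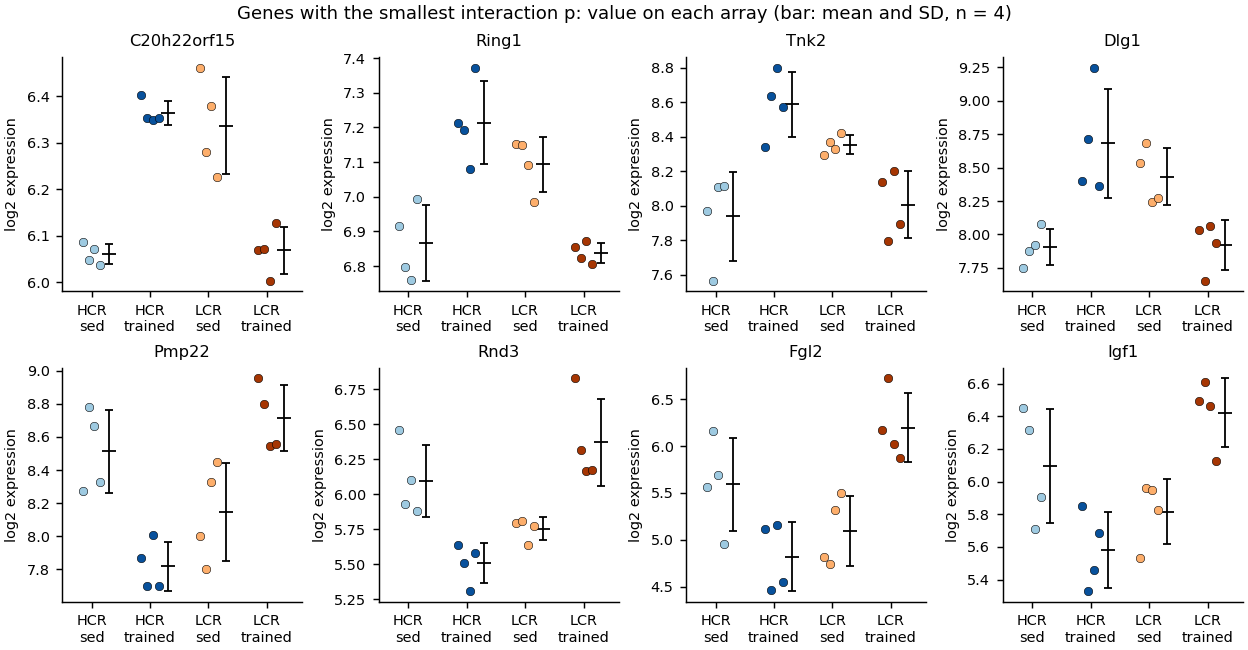
Log2 expression (vertical axes) on each of the 16 arrays for 4 genes with a positive and 4 with a negative interaction, by group, each point 1 rat and each bar the group mean and SD (n = 4). For Igf1, Pmp22, Rnd3 and Fgl2 the probe set shown, that of smallest p, is not the brightest. In Ring1 and C20h22orf15 the HCR groups go up and the LCR groups go down with training, and in Pmp22 and Rnd3 the reverse.

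The simple comparisons of these 24 genes were as follows. HCR and LCR trained rats differed at an adjusted p below 0.05 in 14 of the 24, and sedentary rats of the 2 lines in 0. Over all probe sets the corresponding counts were 116 (0.374%) and 3 (0.00966%). By their values alone, the lines did not overlap among trained rats in 24 of the 24 (13.6% of all probe sets) and among sedentary rats in 10 of the 24 (4.87%). The training response passed in HCR for 3 of the 24, C20h22orf15, Cnot1 and Trappc10, and in LCR for 0, where the background was 58 probe sets (0.187%) and 1 probe set (0.00322%). These comparisons use the same arrays as the interaction that ranked the genes, so they locate the difference and add no independent evidence. Of the 18 genes with other probe sets, 5 (Rnd3, Fgl2, Igf1, Jam2 and Faf2) had another one in the same direction at an unadjusted p below 0.05, and 2 (Usf2 and Dlg1) had all others opposite.

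Training responses that were opposite and fully separate in both lines occurred in 145 probe sets. In 106 of them (0.341%) every HCR trained rat was above every HCR sedentary rat and every LCR trained rat below every LCR sedentary rat, and in 39 (0.126%) the reverse held. Responses in the same direction and separate in both lines numbered 32 upward (0.103%) and 21 downward (0.0677%). Within a line, training groups did not overlap in HCR for 7.61% and in LCR for 8.5% of all probe sets. Trained HCR and LCR rats did not overlap in 4222 probe sets (13.6%), and sedentary rats of the lines did not overlap in 1511 (4.87%). Leaving out HCR sedentary 2 and HCR trained 3 gave 313 opposite and separate probe sets, 235 with HCR higher and 78 with HCR lower, since fewer arrays separate more easily.

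Cox7a1, the heart and muscle form of a cytochrome c oxidase subunit, showed the other pattern, a shared response. It read 6.67, 6.69, 6.52 and 7.01 in HCR sedentary rats, 8.68, 8.28, 8.96 and 8.97 in HCR trained rats, 6.81, 7.12, 6.74 and 5.94 in LCR sedentary rats, and 8.63, 8.19, 8.19 and 8.29 in LCR trained rats. Trained rats were above sedentary rats in both lines without overlap, by 2.00 in HCR (adjusted p = 0.00526) and 1.67 in LCR (adjusted p = 0.0465), so Cox7a1 rose in both lines. The interaction was 0.32 (SE 0.31, adjusted p = 0.602), with a 95% interval from -0.33 to 0.98, an interval that includes 0.

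Fast fibre genes had the largest positive interactions in single genes. Myh4, the fastest myosin heavy chain of rat limb muscle, read 4.76, 8.03, 4.88 and 5.05 in HCR sedentary rats, 11.08, 8.43, 13.57 and 9.98 in HCR trained rats, 4.83, 5.13, 5.03 and 5.10 in LCR sedentary rats, and 5.53, 5.80, 4.84 and 4.95 in LCR trained rats. Every HCR trained rat was above every other rat in the study, and 1 sedentary HCR rat was above the remaining sedentary and LCR rats. The HCR response of 5.09 passed (adjusted p = 0.0475), so Myh4 rose with training in HCR, the LCR response was 0.26, and the interaction was 4.83 (SE 1.23, adjusted p = 0.11). Actn3, the Z-disc actinin of fast fibres, read 6.31, 9.02, 6.68 and 6.22 in HCR sedentary rats, 10.76, 11.10, 14.27 and 9.53 in HCR trained rats, 6.98, 8.60, 7.68 and 6.32 in LCR sedentary rats, and 8.48, 7.19, 8.23 and 5.80 in LCR trained rats. Pvalb, the calcium buffer parvalbumin of fast fibres, read 5.15, 7.05, 5.59 and 5.41 in HCR sedentary rats, 8.94, 9.08, 13.80 and 7.82 in HCR trained rats, 6.14, 5.84, 5.50 and 5.20 in LCR sedentary rats, and 6.10, 5.37, 5.28 and 5.38 in LCR trained rats. Interactions were 4.33 (SE 1.30, adjusted p = 0.133) for Actn3 and 4.25 (SE 1.29, adjusted p = 0.135) for Pvalb, and for both the 4 HCR trained rats were above all LCR trained rats. Without HCR sedentary 2 and HCR trained 3 the values were 4.68 for Myh4 and 3.37 for Pvalb, both then passing (adjusted p = 0.0274), and 4.03 for Actn3. Those arrays hold the highest sedentary and the highest trained HCR values of these genes, and HCR trained 3 was singled out by its fibre genes. Passing there follows in part from that choice and adds no support. Without HCR trained 3 alone Myh4 had 3.89, Pvalb 2.95 and Actn3 3.38.

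The rest of the fibre programme did not share that size, nor always the direction. Of the 17 fast fibre genes, 11 had an interaction above 0 and 6 below 0, including the fast troponins Tnni2 (-0.70) and Tnnt3 (-0.69). Among fast fibre genes, 3 of 17 measured genes had a positive and 0 a negative interaction at that unadjusted p, these being Myh4, Actn3 and Pvalb, beside 13.1% positive and 5.96% negative over 14217 genes, each by its brightest probe set. For the fast fibre list, the median interaction was 0.19, from a median response of 0.38 in HCR and 0.19 in LCR. Without HCR trained 3 it was 0.03, and without both HCR sedentary 2 and HCR trained 3 it was -0.02. Myh2, the fast oxidative myosin present in soleus, had -0.42 (adjusted p = 0.312). For slow fibre genes, the median interaction was -0.59, from a median response of -0.60 in HCR and -0.01 in LCR, and without HCR trained 3 it was -0.01. With the beta-actin index it was -0.95, and that of the fast fibre genes 0.20. The slow troponin Tnnt1 had -1.08 with 1 value of 10.19 on HCR trained 3 and all other values at 13.58 or above. Among slow fibre genes, 1 of 15 measured genes had a positive and 1 a negative interaction at that unadjusted p, the positive one being Pln, the inhibitor of the slow calcium pump (0.56), and the negative one Csrp3, a muscle LIM protein (-1.72). On Myh7 a dimmer probe set gave -4.76 (unadjusted p = 0.0116) and the brightest -0.68.

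**Figure D2:**
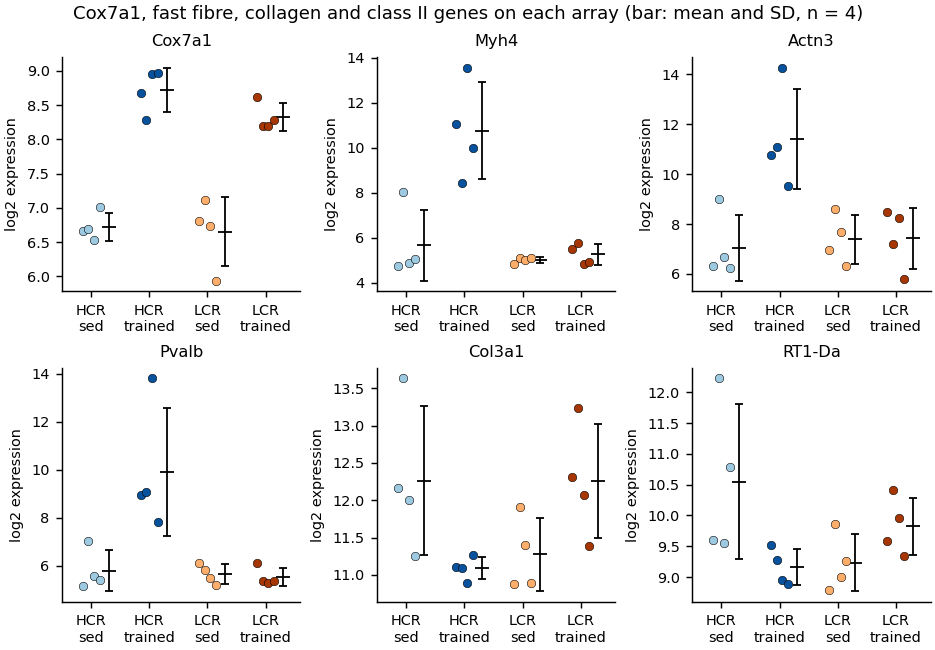
Log2 expression on each of the 16 arrays (vertical axes) for Cox7a1, Myh4, Actn3, Pvalb, Col3a1 and RT1-Da, by group, each point 1 rat and each bar the group mean and SD (n = 4). Cox7a1 is higher in trained rats of both lines, the 3 fast fibre genes are highest in HCR trained rats, and Col3a1 and RT1-Da are highest on HCR sedentary 2.

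Connective tissue genes carried the largest list difference. Of the extracellular matrix genes, 1 of 42 measured genes had a positive and 31 a negative interaction at that unadjusted p, beside 13.1% and 5.96% of all genes. At any p, 40 of 42 were negative where 39.6% of all genes were. Across the list the median interaction was -1.31, from a median response of -0.61 in HCR and 0.68 in LCR. Of the genes, 40 of 42 had responses of opposite sign against 57.4% of all genes. By rat, however, the list means overlapped within both lines. They ran from -0.28 to 1.60 in HCR sedentary and -0.59 to -0.20 in HCR trained rats. In LCR they ran from -0.46 to 0.02 in sedentary and -0.26 to 1.08 in trained rats. Col3a1, a fibrillar collagen, read 12.17, 13.64, 11.999 and 11.25 in HCR sedentary rats, 11.11, 11.09, 10.90 and 11.27 in HCR trained rats, 10.88, 11.91, 11.40 and 10.90 in LCR sedentary rats, and 12.31, 13.24, 12.07 and 11.39 in LCR trained rats. HCR trained and LCR trained rats did not overlap, training groups overlapped within both lines, and the interaction was -2.15 (SE 0.62, adjusted p = 0.126). Col1a1, the main chain of type I collagen, had -2.32 (adjusted p = 0.153), and Sparc, a collagen-binding matrix glycoprotein, had -1.39 (adjusted p = 0.139). Dcn, the collagen-binding proteoglycan decorin, read 11.98, 12.29, 11.99 and 11.92 in HCR sedentary rats, 11.95, 11.69, 12.13 and 11.74 in HCR trained rats, 11.67, 11.84, 11.95 and 12.18 in LCR sedentary rats, and 12.60, 12.72, 12.35 and 12.49 in LCR trained rats. The LCR groups were separate, the HCR groups were not, and the interaction was -0.80 (SE 0.18, adjusted p = 0.0983). The 1 positive matrix gene at that p was Fmod, fibromodulin, at 1.22.

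Much of the matrix difference was on few arrays. Without HCR sedentary 2 the list median was -0.81, without LCR trained 2 it was -1.02, and with the beta-actin index in the model it was -0.30, with 0 positive and 1 negative gene left at an unadjusted p below 0.05. Dcn kept -0.35 in that fit and Col3a1 -0.86. HCR sedentary 2 and LCR trained 2, the highest arrays for matrix genes, also had the lowest beta-actin indices of all arrays, 0.38 and 1.06. The fit with the index and those without these arrays are therefore not separate checks. The part of the index in these values was not tested beyond this fit.

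Genes of macrophages and other leukocytes followed the matrix genes. Of these markers, 0 of 29 measured genes had a positive and 16 a negative interaction at that unadjusted p, beside 13.1% and 5.96% of all genes. The median interaction was -0.97, from a median response of -0.44 in HCR and 0.51 in LCR. Cd4, the T helper and macrophage surface receptor, read 6.17, 7.16, 6.26 and 6.21 in HCR sedentary rats, 6.06, 5.79, 5.78 and 5.95 in HCR trained rats, 6.08, 5.96, 6.05 and 6.18 in LCR sedentary rats, and 6.38, 6.67, 6.48 and 6.37 in LCR trained rats. Its training groups were separate in both lines, in opposite directions, with an interaction of -0.97 (SE 0.24, adjusted p = 0.105). C1qa, a complement subunit made by tissue macrophages, had -1.60 (adjusted p = 0.138). Without HCR sedentary 2 the list median was -0.60, and with the beta-actin index it was -0.23. Mast cell markers had 0 of 10 genes at that p in either direction and a median of -0.15, blood cell markers 0 of 7 and -0.04. With the beta-actin index these were -0.39 and -0.16, and without HCR sedentary 4 the mast cell median was -0.02.

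Among antigen presentation genes the class II chains had the largest values. Class II molecules, assembled from alpha and beta chains with the help of the invariant chain Cd74, present peptides to helper T cells and are made by antigen-presenting cells. Of the MHC genes, 0 of 19 measured genes had a positive and 8 a negative interaction at that unadjusted p, beside 13.1% and 5.96% of all genes. The median interaction was -0.39, from a median response of -0.24 in HCR and 0.11 in LCR. The median with the beta-actin index was -0.41. All 6 of the 6 measured class II RT1 chains were negative, 5 of them at that p. The others at that p were Cd74 and the class I peptide transporter subunits Tap1 (-0.48) and Tap2 (-0.39), while Ciita, the class II transactivator, was at 0.00. Both chains of RT1-D, RT1-Da and RT1-Db1, and RT1-Bb of RT1-B carried the largest values, and the 150 bases before their start sites (RefSeq, GRCr8) are printed because these 3 had like values. The intervals are chr20:4515265-4515414 on the plus strand, chr20:4560163-4560312 on the minus strand and chr20:4604119-4604268 on the minus strand, all upstream of the annotated gene. Capitals mark CTGATTGG, the core of the Y box of class II promoters, searched on both strands (CCAATCAG on the other).
RT1-Da: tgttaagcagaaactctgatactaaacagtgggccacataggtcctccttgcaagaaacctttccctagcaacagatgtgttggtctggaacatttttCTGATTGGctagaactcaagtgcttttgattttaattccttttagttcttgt
RT1-Db1: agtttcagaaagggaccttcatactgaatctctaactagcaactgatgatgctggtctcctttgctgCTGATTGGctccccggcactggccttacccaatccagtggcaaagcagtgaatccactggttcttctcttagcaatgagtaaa
RT1-Bb: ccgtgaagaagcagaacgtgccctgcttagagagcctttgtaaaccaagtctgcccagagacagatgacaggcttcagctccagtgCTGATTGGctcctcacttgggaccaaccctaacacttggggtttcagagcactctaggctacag
The motif starts 52, 83 and 64 bases before the start site in these 3, was also found in RT1-Ba and not in the window of RT1-DMa or Cd74, and occurs in 820 of 33469 promoter windows of that length (2.45%). It was chosen after the sequences were seen, and a match is a description of letters.

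RT1-Da, the class II D alpha chain, read 9.61, 12.23, 9.56 and 10.79 in HCR sedentary rats, 9.52, 9.28, 8.95 and 8.89 in HCR trained rats, 8.80, 9.87, 9.01 and 9.27 in LCR sedentary rats, and 9.58, 10.41, 9.96 and 9.35 in LCR trained rats. The HCR groups did not overlap, by a narrow margin, the LCR groups did, and HCR sedentary 2 was the highest array. Its interaction was -1.97 (SE 0.66, adjusted p = 0.154), that of RT1-Db1 -2.11 (SE 0.64, adjusted p = 0.135) and that of RT1-Bb -2.16 (SE 0.65, adjusted p = 0.135). Cd74 had -1.71 (SE 0.54, adjusted p = 0.142). Without HCR sedentary 2 they were -1.41, -1.56, -1.84 and -1.28, and with the beta-actin index -0.70, -0.77, -1.52 and -0.64. Interferon-responsive genes had a median of 0.08, and of -0.04 with the beta-actin index. At that p 1 of 22 was negative, the restriction factor Bst2 (-1.35, adjusted p = 0.106), beside 5.96% of all genes.

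Vessel genes showed smaller values. Of the endothelial genes, 0 of 20 measured genes had a positive and 5 a negative interaction at that unadjusted p, and the median interaction was -0.17, from a median response of 0.05 in HCR and 0.24 in LCR. The background of negative genes is 5.96%. The median was -0.05 without HCR trained 3 and -0.17 with the beta-actin index. Erg, a transcription factor of endothelial cells, had -1.08 (adjusted p = 0.131), and Eng, the TGF-beta co-receptor endoglin, had -0.41 (adjusted p = 0.147), from 0.02 in HCR and 0.43 in LCR. Cd9, a tetraspanin of many cell types, read 9.47, 9.81, 9.50 and 9.45 in HCR sedentary rats, 9.81, 9.49, 9.12 and 9.40 in HCR trained rats, 9.27, 9.31, 10.00 and 9.42 in LCR sedentary rats, and 10.32, 10.57, 10.35 and 10.98 in LCR trained rats. Every LCR trained rat was above every other rat, HCR rats did not separate, and the interaction was -1.15 (SE 0.26, adjusted p = 0.0983). Among angiogenic ligands and hypoxia genes, 4 of 15 measured genes had a positive and 0 a negative interaction at that unadjusted p, beside 13.1% and 5.96% of all genes. The 4 included Angpt2, an antagonist of the Tie2 receptor (0.72), and Vegfb, a ligand of VEGF receptor 1 (0.76). None of those 4 remained at that p with the beta-actin index, where Angpt2 had 0.31 and Vegfb 0.07, and the list median went from 0.05 to -0.03. Vegfa, the main angiogenic ligand, had -0.08 on its brightest probe set and -1.08 on the other. Smooth muscle and pericyte markers had 3 of 16 negative genes at that p, led by the pericyte potassium channel Kcnj8 (-0.55), and a median of -0.05 (-0.10 with the beta-actin index).

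In the insulin and growth signalling list, 3 of 23 measured genes had a positive and 6 a negative interaction at that unadjusted p, beside the background of 13.1% positive and 5.96% negative, so the positive count is at the background. Its median was -0.05, and 0.02 with the beta-actin index. Besides Igf1, the negative ones included Pik3r1, the regulatory subunit of PI3-kinase (-1.21, adjusted p = 0.135), and Gsk3b, a kinase that restrains glycogen synthesis (-1.27, adjusted p = 0.139). In the satellite cell and myogenic list the median was -0.42, with Cdh15, the cadherin of satellite cells, at 0.50 and Myog, the differentiation factor myogenin, at -1.29, and with the beta-actin index the median was -0.10. Proliferation and spindle genes had a median of -0.21 and 1 of 22 negative at that p, Nusap1. That median was -0.08 without HCR sedentary 2 and 0.01 with the beta-actin index.

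**Figure D3:**
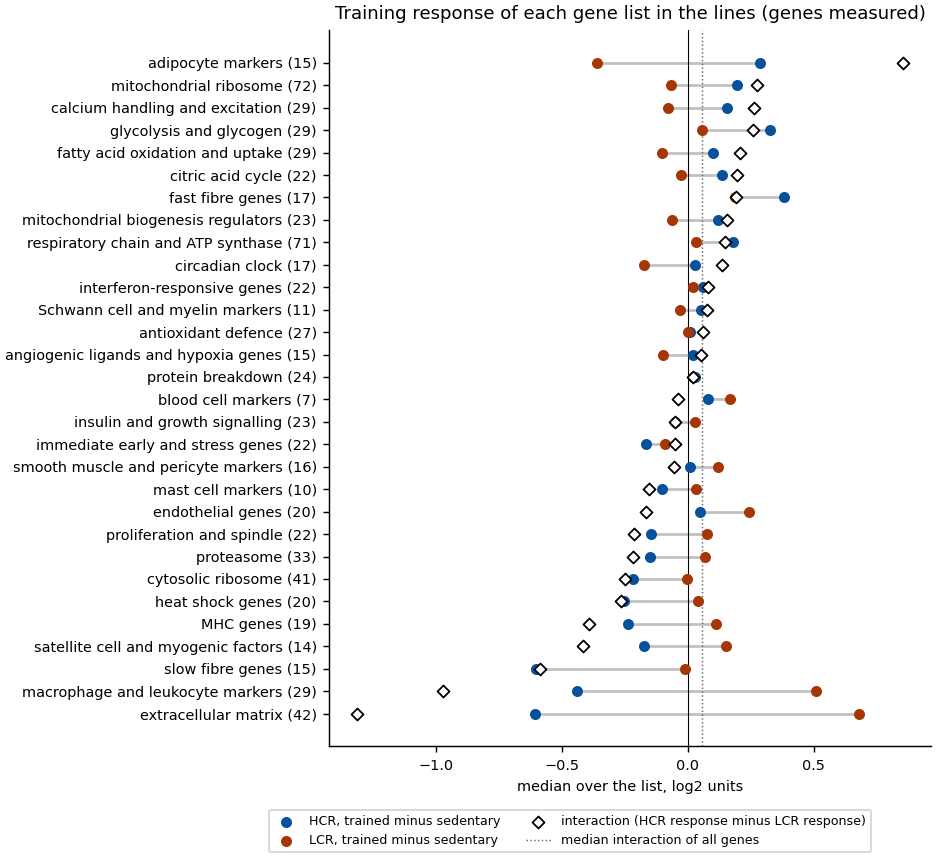
Median training response of 30 gene lists in HCR (blue) and LCR (brown) and median interaction (open diamonds), all in log2 units, with the number of genes measured in brackets and the median interaction of all genes as a dotted line. The extracellular matrix, macrophage and slow fibre lists lie to the left and the adipocyte and mitochondrial ribosome lists to the right.

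Genes for making proteins inside and outside the mitochondrion lay on opposite sides. Of the mitochondrial ribosome, whose subunits translate the few proteins encoded by mitochondrial DNA, 28 of 72 measured genes had a positive and 0 a negative interaction at that unadjusted p, a share of positive genes above the 13.1% background, and the median interaction was 0.27, from a median response of 0.20 in HCR and -0.06 in LCR. Mrps27, a small subunit protein, read 7.87, 7.40, 8.00 and 8.20 in HCR sedentary rats, 8.44, 8.62, 8.53 and 8.34 in HCR trained rats, 8.43, 8.36, 8.31 and 8.34 in LCR sedentary rats, and 8.06, 7.70, 8.10 and 8.50 in LCR trained rats. The HCR groups were separate, the LCR groups were not, and the interaction was 0.89 (SE 0.23, adjusted p = 0.116). Mrpl51, of the large subunit, had 0.48 (adjusted p = 0.139), with 2 of its 3 other probe sets the same way at that p. Of the cytosolic ribosome, 0 of 41 measured genes had a positive and 18 a negative interaction at that unadjusted p, beside 13.1% and 5.96% of all genes. The median interaction was -0.25, from a median response of -0.22 in HCR and 0.00 in LCR. Rps9 had -0.48 (adjusted p = 0.144) and Rpl13a -0.54 (adjusted p = 0.152). In the proteasome, which degrades ubiquitin-tagged proteins, 0 of 33 measured genes had a positive and 12 a negative interaction at that unadjusted p. The same background of 13.1% and 5.96% applies. The median interaction was -0.22, from a median response of -0.15 in HCR and 0.07 in LCR, with -0.63 (adjusted p = 0.124) for the core subunit Psma4. With the beta-actin index the medians were 0.02 for the mitochondrial ribosome, -0.02 for the cytosolic ribosome and 0.00 for the proteasome.

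The plot of list means by array shows how these lists lie on the arrays. For the cytosolic ribosome all 4 HCR trained rats had means below all HCR sedentary rats, by list means from -0.16 to -0.08 against 0.02 to 0.34, while the LCR groups overlapped. For the mitochondrial ribosome the HCR groups overlapped, with means from 0.04 to 0.15 in trained and -0.32 to 0.09 in sedentary rats.

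**Figure D4:**
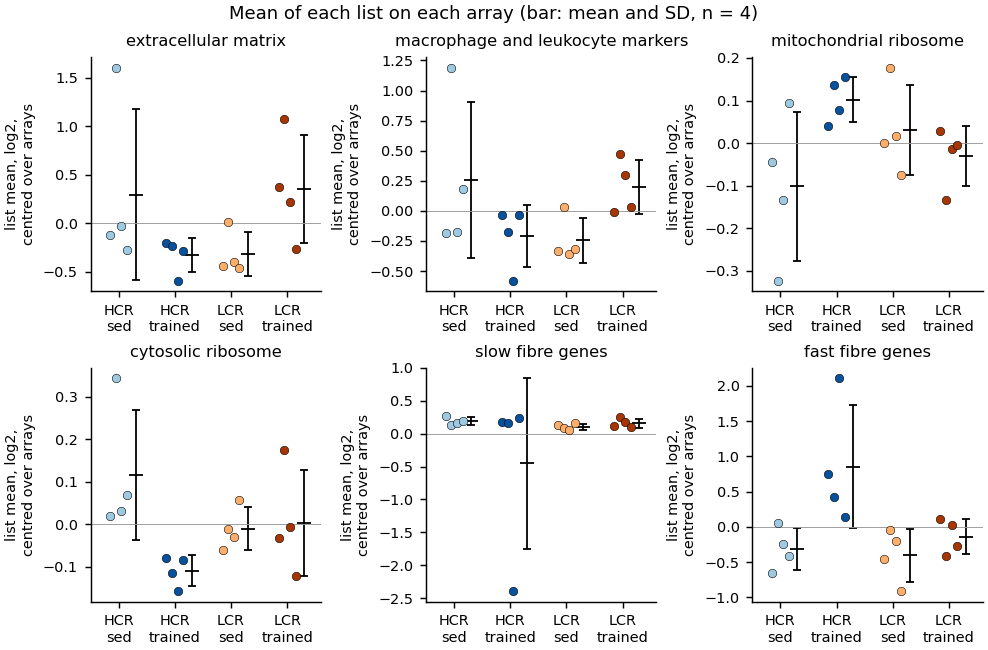
Mean over the genes of 6 lists on each of the 16 arrays, in log2 units centred over the arrays, by group, each point 1 rat and each bar the group mean and SD (n = 4). HCR sedentary 2 is highest for matrix, macrophage and cytosolic ribosome genes, and HCR trained 3 is lowest for slow and highest for fast fibre genes.

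Genes of energy metabolism had few values at that p. The respiratory chain and ATP synthase list had 64 of 71 genes above 0 (60.4% of all genes) and a median of 0.15. At an unadjusted p below 0.05 it had 2 positive and 1 negative gene, below the 13.1% and 5.96% of all genes. These were the complex III proteins Uqcrc1 (0.40) and Uqcrfs1 (0.29), and Cox5a of complex IV (-0.46). Without HCR sedentary 2 the list median was 0.05 and with the beta-actin index -0.16. The citric acid cycle list had a median of 0.20. At that p 2 of its 22 genes were positive, also below 13.1%: Idh3g, a subunit of isocitrate dehydrogenase (0.54), and Aco1 (0.43). The citric acid cycle median was 0.06 without HCR sedentary 2 and -0.09 with the beta-actin index. Fatty acid oxidation and uptake had 0 of 29 genes at that p in either direction and a median of 0.21, which was -0.08 without HCR sedentary 2 and -0.49 with the beta-actin index. Among mitochondrial biogenesis regulators, 3 of 23 measured genes had a positive and 0 a negative interaction at that unadjusted p, beside 13.1% positive in the background, with Polrmt, the mitochondrial RNA polymerase, at 0.56 (adjusted p = 0.133), and a median of 0.15. That median was 0.05 without HCR sedentary 2 and -0.03 with the beta-actin index. Ppargc1a, the coactivator PGC-1 alpha, had -0.20 on its brightest probe set (adjusted p = 0.755).

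Glycolysis and glycogen genes followed the fast fibre genes on HCR trained 3. In this list 4 of 29 measured genes had a positive and 2 a negative interaction at that unadjusted p, beside 13.1% and 5.96% of all genes. Both counts are near that background. The median interaction was 0.26, from a median response of 0.33 in HCR and 0.06 in LCR. That median interaction was 0.03 without HCR trained 3 and 0.21 with the beta-actin index. Gpd1, of the glycerol phosphate shuttle, had 2.09 (adjusted p = 0.213) and Pfkfb1, which sets the phosphofructokinase activator, 1.49 (adjusted p = 0.218), both with their highest value on HCR trained 3 and their lowest on HCR sedentary 2. Hk2, the insulin-regulated hexokinase, had -1.11, and Slc2a4, the glucose transporter GLUT4, had 0.43 (adjusted p = 0.472). In the model without covariates, adipocyte markers had the highest list median, 0.85. At that p, however, 1 of 15 genes was positive, Cebpa (0.31), below the 13.1% of all genes. The adipocyte median was 0.48 without HCR sedentary 2 and 0.30 with the beta-actin index, where calcium handling genes (0.32) lay higher. Scd, a fatty acid desaturase, read 8.04, 7.44, 7.90 and 7.59 in HCR sedentary rats, 10.77, 6.95, 7.25 and 11.01 in HCR trained rats, 9.23, 9.01, 7.87 and 9.40 in LCR sedentary rats, and 7.71, 6.78, 6.64 and 9.74 in LCR trained rats. All groups overlapped, and 2 HCR trained rats were above all other rats, so the interaction of 2.42 (SE 1.23, adjusted p = 0.309) was within the spread between rats.

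Calcium handling and excitation genes were positive in 24 of 29 cases, beside 60.4% of all genes. In the list 7 of 29 measured genes had a positive and 2 a negative interaction at that unadjusted p, beside 13.1% and 5.96%, and the median interaction was 0.26, from a median response of 0.15 in HCR and -0.08 in LCR. That median was 0.17 without HCR trained 3, whose list mean lay 0.44 above the average over arrays, and 0.32 with the beta-actin index. Nfatc3, a calcineurin-activated transcription factor, read 8.73, 8.48, 8.81 and 8.93 in HCR sedentary rats, 9.02, 9.21, 9.23 and 9.08 in HCR trained rats, 8.88, 8.83, 8.85 and 8.78 in LCR sedentary rats, and 8.78, 8.74, 8.82 and 8.77 in LCR trained rats. The HCR groups were separate and the LCR groups overlapped, with an interaction of 0.46 (SE 0.11, adjusted p = 0.105). Stim1, the sensor of calcium stores, had 0.56 (adjusted p = 0.127), although its 2 other probe sets had the opposite sign. Rcan1, an inhibitor of calcineurin that calcineurin itself induces, had -1.84 (adjusted p = 0.151), with 8.40 on HCR trained 3 and the other HCR trained rats between 10.26 and 11.04, below all 4 LCR trained rats, which lay between 11.48 and 11.92. Without HCR trained 3 the Rcan1 value was -1.30.

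The remaining lists are given by their medians and leading genes. Their counts at an unadjusted p below 0.05 stand beside 13.1% positive and 5.96% negative over all genes. Heat shock genes had a median of -0.26 (-0.14 without HCR trained 3), led by the endoplasmic reticulum chaperone Hsp90b1 (-1.07, adjusted p = 0.154). Among immediate early and stress genes, 1 of 22 measured genes had a positive and 3 a negative interaction at that unadjusted p, with Klf6 at -1.03 (adjusted p = 0.122) and Jun at -0.78 (adjusted p = 0.161), and a median of -0.05. In the circadian clock list the median was 0.14, with the output factor Hlf at 1.19 (adjusted p = 0.123), from 0.21 in HCR and -0.98 in LCR, and the repressor Cry1 at 0.61 (adjusted p = 0.128). For protein breakdown, 4 of 24 measured genes had a positive and 3 a negative interaction at that unadjusted p, the positive count near the background. The list median was 0.02, with Ulk1, the kinase that starts autophagy, at 0.60 (adjusted p = 0.119). Acvr2b, the receptor of myostatin, had 0.79 (adjusted p = 0.124). Antioxidant defence genes had a median of 0.06, with 2 of 27 genes in each direction at that p. Among them were extracellular superoxide dismutase Sod3 (0.67) and metallothionein Mt2A (-2.097), the latter with 11.51 on HCR sedentary 2. Schwann cell and myelin markers had a median of 0.08, with 2 of 11 positive at that p, led by the myelin protein Prx (0.47, adjusted p = 0.128). With the beta-actin index the medians were -0.27 for heat shock, 0.02 for immediate early, 0.16 for clock, 0.07 for protein breakdown, -0.09 for antioxidant and -0.05 for Schwann cell genes. Leaving out 1 array changed the sign of the immediate early, protein breakdown, antioxidant and Schwann cell medians, and of those of the insulin signalling, interferon, smooth muscle and blood cell lists, and gave clock medians from 0.06 without LCR sedentary 4 to 0.21 without LCR trained 2.

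**Figure D5:**
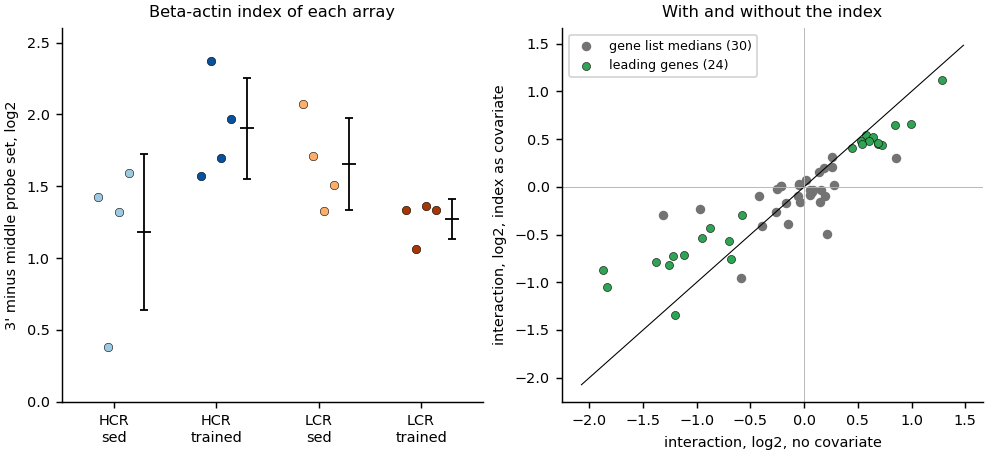
Left, the beta-actin index (3' minus middle probe set, log2) of each array by group, each point 1 rat and each bar the mean and SD (n = 4). Right, interactions in log2 units without (horizontal) and with (vertical) the index as a covariate, with the line of equality. Green points are the 24 leading genes and grey points the medians of 30 gene lists. The leading genes, chosen for small p without the index, keep their sign. The matrix and macrophage medians go from -1.31 to -0.30 and from -0.97 to -0.23.

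Once the beta-actin index was added to the model, 1305 probe sets (4.2%) had an unadjusted p below 0.05 for the interaction, 754 positive and 551 negative, against 5673 without it, and 0 passed in either fit. Adding the GAPDH index in its place left 4526 at that p. With the beta-actin index the fast fibre genes had 7.90 for Myh4, 6.18 for Actn3 and 5.59 for Pvalb, and the matrix, macrophage, ribosome and proteasome medians were among those nearer to 0 than without it.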

How the data were processed

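Whole soleus RNA of 16 rats was measured on Affymetrix rat expression arrays, 1 per rat. The deposited values are log2 expression, 1 per probe set. RMA and limma were used, per the submitters' processing notes; their versions are not given in the sources used here. RMA gives all arrays like distributions, so a difference is relative to most probe sets. Depth has no meaning for arrays, and their number limits the precision. Array medians were 5.91 to 5.98 and pairs of arrays correlated between 0.941 and 0.996.

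Groups came from sample titles. limma 3.58.1 in R 4.3.3 fitted 4 group means (12 residual degrees of freedom, empirical Bayes), and p-values were adjusted by Benjamini-Hochberg over 31042 probe sets at 0.05. The fitting was tested on simulated data. Symbols came from the platform annotation: 20826 probe sets had 1, 436 several and 9780 none, and 20758 matched RefSeq (GRCr8). Named are the 12 genes of smallest p per direction with a brightest group mean of at least 5.61 (40th percentile), by the probe set of smallest p, the 5 of smallest p with opposite separate responses, up to 4 members per list, and key genes; genes given only to complete a count were chosen after their values were seen. The 30 lists use the brightest probe set per gene. Members, lists and tests were chosen with earlier results of these data known. Alternatives were rescaling, a dim filter, trend and robust moderation, array weights, replicate block, covariates and leaving out arrays.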

Additional observations from a re-analysis of the deposited data

Results flagged for a closer look

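Values far from the other 3 of their group were found in 42 of 480 group checks of named genes, list means and control indices (8.75%), where chance gives about 1 in 20, and genes on an array are not independent. Of these, 18 were on HCR sedentary 2 and 4 on HCR trained 3. Gene values are in log2 units. On HCR sedentary 2, the highest value of its group stood apart for Myh4 8.03, Actn3 9.02, Sparc 12.61, Cd4 7.16, C1qa 10.96 and Cd9 9.81. On HCR sedentary 2, the lowest value of its group stood apart for Trappc10 7.61, Uqcrc1 12.17, Gpd1 7.48, Pfkfb1 8.09 and Cry1 8.07. Its list means, centred over arrays, stood apart for adipocyte markers -0.813, citric acid cycle -0.515, cytosolic ribosome 0.343, extracellular matrix 1.60, fatty acid oxidation and uptake -0.95, proliferation and spindle 0.592 and proteasome 0.303.

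On HCR trained 3, the highest value of its group stood apart for Pfkfb1 11.75. On HCR trained 3, the lowest value of its group stood apart for Tnnt1 10.19 and Myh7 on its brightest probe set 12.05. Its list means, centred over arrays, stood apart for slow fibre genes -2.39. On the remaining arrays there were single values. On HCR sedentary 4, the highest value of its group stood apart for the GAPDH index 0.735. On HCR sedentary 4, the lowest value of its group stood apart for Rgs4 6.50, Nherf2 6.98, Myh7 on its dimmer probe set 11.05 and Vegfa 7.27. On HCR trained 1, the highest value of its group stood apart for C20h22orf15 6.40 and Cd74 10.28. On HCR trained 2, the lowest value of its group stood apart for Bst2 7.02. Its list means, centred over arrays, stood apart for proteasome -0.245. On HCR trained 4, the highest value of its group stood apart for Aff1 10.08. On LCR sedentary 1, list means, centred over arrays, stood apart for Schwann cell and myelin markers 0.165. On LCR sedentary 2, list means, centred over arrays, stood apart for extracellular matrix 0.0167, interferon-responsive genes 0.215 and macrophage and leukocyte markers 0.0343. On LCR sedentary 4, the highest value of its group stood apart for Eng 8.29. On LCR trained 1, the highest value of its group stood apart for Pvalb 6.10. On LCR trained 2, the lowest value of its group stood apart for Ppargc1a 7.97 and the beta-actin index 1.06. On LCR trained 3, list means, centred over arrays, stood apart for blood cell markers 0.315. On LCR trained 4, list means, centred over arrays, stood apart for endothelial genes 0.203.

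By group means, the training response of the beta-actin index was 1.10 higher in HCR than in LCR (two-sided exact permutation, p = 0.00327). The null of that test is no training response in either line, and equal responses were not tested as such.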

How the results depend on the processing

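The count of 0 calls became 1 after quantile normalization and 1 after median centring (C20h22orf15 in both), 233 with array weights, 22 without HCR sedentary 2 and HCR trained 3 together, all positive, and 196 at an adjusted p of 0.10. Leaving out 1 array gave between 0 and 185 calls, with 185 without HCR sedentary 4, 24 without HCR trained 3, and 1 each without HCR sedentary 2 and without LCR sedentary 4. The sets shared 106 calls between array weights and HCR sedentary 4 left out, and 23 between array weights and HCR trained 3 left out. The dim filter, trend and robust moderation, the GAPDH covariate and a 1.5-fold minimum gave 0 calls. Probe sets at an unadjusted p below 0.05 numbered 1305 with the beta-actin covariate. Opposite and separate responses numbered 313 without both arrays and 161 to 323 with 1 array left out. Leaving out 1 array gave 0.1004 to 0.496 for the GAPDH index (0.496 without HCR trained 3, p = 0.0159 in an exact permutation test) and 0.356 to 0.675 for the spike-in controls. Signs turned with the beta-actin covariate for Uqcrc1 -0.095, Idh3g -0.066, Hk2 0.132, Mt2A 0.135 and Slc2a4 -0.271. Of 30 list medians, 14 kept their sign under all settings.

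With the replicate number as a block, 0 probe sets passed and 5594 had an unadjusted p below 0.05. The numbers did not clearly pair the samples: deviations of same-numbered arrays correlated between -0.483 and 0.573, over 0.1 in 8 of 24 pairs. Arrays of different number were not compared, so this check cannot decide whether the numbers pair the samples. Brightness, not depth, limits dim probe sets.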
